A study of Mus musculus with 18 samples.

Results

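CD4+ T cells that lacked miR-155 and came from mice given checkpoint antibodies were compared with CD4+ T cells of untreated mice in which the miR-155 gene was floxed but intact. The comparison rests on 6 of the 18 libraries of the series, chosen by their labels alone: 3 of treated deficient and 3 of untreated floxed CD4+ cells. The mice were of strain B6. Floxed mice carried no Cre. Deficient mice had the floxed gene and a CD4-Cre transgene, whose promoter drives Cre in developing T cells of both the CD4 and the CD8 lineage. All mice bore subcutaneous tumors of B16f10-OVA, melanoma cells that express ovalbumin as a model antigen, for 12 days. Treated mice were given antibodies to CTLA-4 and to PD-1/PD-L1 by intraperitoneal injection on days 3, 6 and 9. Each library pooled cells of 2 to 3 tumors before the flow sort. Whether animals were shared between pools is not stated, so p-values measure only the spread between these libraries. Treated floxed mice were not analysed here. Genotype and antibody therefore differ together in this comparison and cannot be told apart by it alone. Untreated deficient CD4+ cells (3 libraries) were used to separate what the deletion comparison already showed from what appeared with the antibodies. Of 49671 gene models 14080 had enough counts to be tested.

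MicroRNAs pair with the 3' untranslated region (UTR) of messenger RNAs, mainly through a seed near their 5' end, and lower the stability or translation of those messengers. MiR-155 is cut from the transcript Mir155hg, is induced when T cells are activated, and is known to support T cell responses to tumors. CD4+ T cells include helper cells, which make cytokines, and regulatory cells, which restrain immunity. PD-1 and CTLA-4 act as brakes on T cells, and blockade antibodies keep them from binding their ligands.

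The mature miR-155-5p and the sites of its seed in 6 reported targets that differed in this comparison are shown because they are the sequences by which loss of miR-155 could be read in these cells. Capitals mark the seed (bases 2 to 8) in the miRNA and the 7 bases complementary to it in the targets. Each target window is written 5' to 3' on the strand of the gene, and of the 2 sites in Bach1 1 is shown.
miR-155-5p: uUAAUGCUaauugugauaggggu
Hif1a site: gtgagtaattttagaAGCATTAt
Sla site: tacttctaagtgggaAGCATTAc
Socs1 site: ctgccgctgtgccgcAGCATTAa
Sdcbp site: ttttcattccacaaaAGCATTAc
Bach1 site: ctctatgaacagtttAGCATTAa
Cebpb site: accttttccgtttcgAGCATTAa
The miRNA sequence is that of RefSeq (GRCm38.p6, chr16:84714143-84714165, plus strand). The windows lie in the 3' UTRs of the reference annotation, GENCODE M21 on GRCm38: chr12:73946724-73946746 (plus strand, Hif1a), chr15:66780924-66780946 (minus strand, Sla), chr16:10784206-10784228 (minus strand, Socs1), chr4:6395057-6395079 (plus strand, Sdcbp), chr16:87732173-87732195 (plus strand, Bach1) and chr2:167690351-167690373 (plus strand, Cebpb). Hif1a, Sla and Socs1 were higher and Sdcbp, Bach1 and Cebpb lower in treated deficient cells, so both directions occurred among genes with the same 7 letters.

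Levels are CPM (counts per 1e+06 counts) after scaling between libraries by edgeR's trimmed mean of M-values (TMM). A gene was called where the p of the quasi-likelihood test of edgeR, adjusted over all 14080 genes by the method of Benjamini and Hochberg, was under 0.05. Log2 fold changes are treated deficient minus floxed unless another contrast is named, each ± its standard error (SE). The floxed libraries held 6.36, 7.39 and 4.47 M (mega) counts and the treated ones 11.4, 3.36 and 10.25 M. A count of 3 corresponded to 0.412 to 0.747 CPM in the floxed and 0.262 to 0.904 CPM in the treated libraries, which covers counting error only.

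The deleted locus was low in the treated cells. Mir155hg (ENSMUSG00000097418, GRCm38 chromosome 16, 84703167 to 84715245, plus strand) had 29, 60 and 27 counts in the floxed libraries and 1, 0 and 2 in the treated ones. No library of the groups overlapped. Over the group the level in floxed cells was 56.6 times that in treated cells, with an exact 95% counting interval of 18.9 to 278.4. Whether the counted stretch lies in the deleted part is not given in the sources used here. The separate model of the precursor, Mir155, had 0 counts in every library of the 3 CD4 groups, so the mature miRNA was not measured.

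Markers of the sort and of other cells differed between the groups. Cd4, which encodes the co-receptor that names these cells, stood at 433.8, 469.8 and 233.2 CPM in floxed and at 974.2, 1090.6 and 796.1 CPM in treated cells. All treated libraries lay above the floxed ones (1.33 ± 0.32, adjusted p = 0.0138), and the call was lost without floxed replicate 3 (adjusted p = 0.0598) or treated replicate 1 (0.0534). Cd8a, a chain of the cytotoxic T cell co-receptor, was at 14.6, 149.7 and 141.8 CPM in floxed and at 1.83, 17.5 and 4.97 CPM in treated cells, with overlap (-4.01 ± 0.79, adjusted p = 0.00601), and at 0.26, 0.136 and 0.283 CPM in untreated deficient cells. The 22 macrophage and monocyte markers summed to 13047.0 to 27944.6 CPM in floxed, 3522.5 to 5143.5 CPM in deficient and 3124.4 to 5031.3 CPM in treated cells. None of the 22 was at 0 in either group. The 15 pan T cell markers summed to 3657.8 to 5634.1 CPM in floxed and 6508.2 to 7461.1 CPM in treated cells. The 15 melanoma markers summed to 240.1 to 831.5 CPM in floxed, 2037.1 to 4606.9 CPM in deficient and 627.4 to 2208.9 CPM in treated cells, and none was at 0. In pooled, sorted cells, fewer cells of a type and less RNA per cell cannot be told apart.

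**Figure D1:**
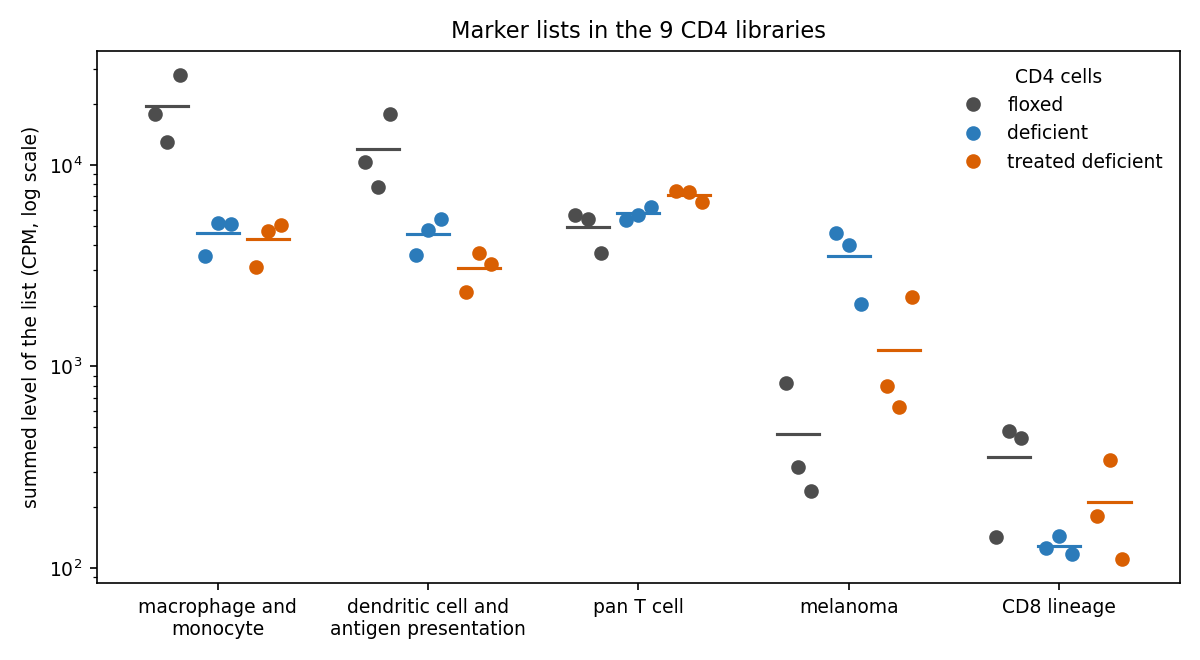
Summed level of 5 marker lists in each CD4 library (points, CPM on a log axis) with the mean of the 3 libraries of a group (bars) for floxed, untreated deficient and treated deficient cells. All floxed libraries lie above all deficient and treated ones for the macrophage and for the dendritic cell list, while the treated libraries are the highest for the pan T cell list.

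Treated deficient CD4+ cells differed from floxed ones in many genes, more often downward than upward. Of the 14080 genes 575 were called higher (4.08%) and 1137 lower (8.08%), 12.2% in all. The libraries of the groups did not overlap for 3906 genes (27.7%). The median log2 fold change over all tested genes was 0.01. Among the 22 macrophage markers 18 were called lower and 0 higher. With the summed macrophage level as a covariate, 6 genes were called higher and 15 lower. That level does not overlap between the groups, so the genotype with its treatment and the macrophage level cannot be told apart by this fit. Scaling the libraries to the pan T cell genes, an alternative chosen after seeing the data, moved the median of all genes to -0.56 and the counts to 149 higher and 5144 lower. All 1137 genes called lower kept that call there, and 126 of the 575 higher ones did. Upper quartile scaling gave 948 higher and 991 lower. Without floxed replicate 3, the library with the most macrophage transcripts, the counts were 193 and 589, and without treated replicate 1 they were 276 and 647.

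The question of what remained different after blockade was read by setting these calls beside those of untreated deficient against floxed cells (the deletion comparison), in which 1643 genes (11.7%) were called. Both comparisons share the 3 floxed libraries, so their likeness is in part built in. Of the deletion calls 939 kept their call and direction in treated cells, 204 higher and 735 lower, which is 57.2% of the deletion calls and 54.8% of the treated ones. The share kept was 73.9% of the genes lower in the deletion comparison and 31.4% of the higher ones. None turned its direction. A further 704 genes were no longer called, 445 of them higher and 259 lower after deletion. Another 773 were called in treated cells without a deletion call, 371 higher and 402 lower. The count of kept genes was 425 without floxed replicate 3 and 579 without deficient replicate 1. That of genes no longer called was 358 without floxed replicate 3, and 239 and 444 without deficient replicate 1 and 2. That of gained genes was 357 without floxed replicate 3, and 269 and 399 without treated replicate 1 and 2.

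A lost or gained call does not show that the antibodies moved a gene. That was read from treated against untreated deficient CD4+ cells (the blockade comparison), where edgeR called 20 genes (0.142%), 12 higher and 8 lower. At an unadjusted p under 0.05 there were 1590. DESeq2 called 177, 100 higher and 77 lower, and limma voom 24, 8 higher and 16 lower, so the balance of directions depended on the tool. Of the 704 genes no longer called 7 had a blockade call, and of the 773 gained ones also 7. The blockade comparison shares its deficient libraries with the deletion comparison and its treated libraries with the treated comparison. Opposite signs to the first and like signs to the second are therefore in part built in. For the 445 genes that were higher after deletion and no longer called, the median log2 fold change was 2.19 in the deletion and 0.85 in the treated comparison, and 419 of them kept their sign. These genes were picked for a call in the first and none in the second, which by itself favours a smaller treated value.

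**Figure D2:**
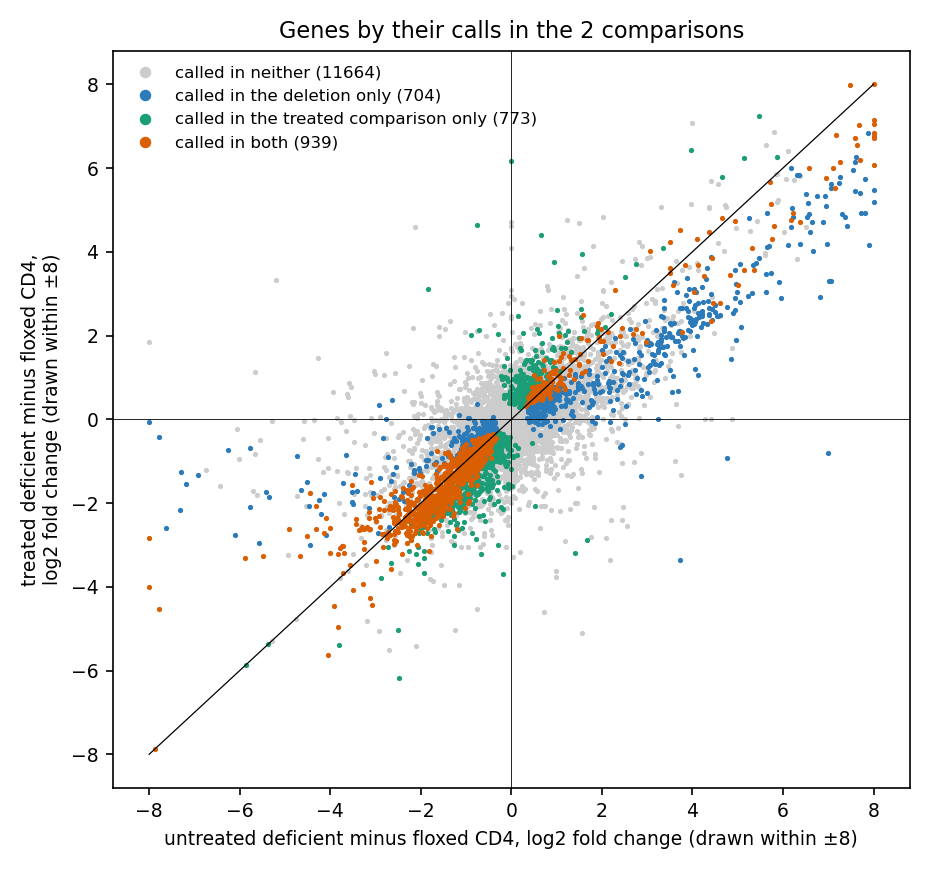
Log2 fold change of each tested gene in the deletion comparison (horizontal) and in the treated comparison (vertical), both against the same 3 floxed CD4 libraries, coloured by where the gene was called. The 939 genes called in both lie in the lower left and upper right along the line of equal change, and the 445 genes that were higher in the deletion comparison alone all lie below that line. The rule that picked the latter favours such a place.

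Among genes that stayed higher, Stc2, which encodes a secreted glycoprotein made under cell stress, stood out. It was at 1.18, 0.412 and 1.24 CPM in floxed and 23.3, 21.4 and 17.7 CPM in treated cells. No libraries overlapped (4.51 ± 0.45, adjusted p = 5.59e-06), and untreated deficient cells held 11.4, 13.6 and 11 CPM. Gh, the gene of pituitary growth hormone, had 0 counts in all floxed libraries and 518, 132 and 357 in the treated ones. That is at least 229-fold higher, against a floor of 3 counts over the floxed group. Untreated deficient CD4+ cells held 346, 231 and 114 counts of Gh, while floxed and deficient CD8 libraries held 0 and treated CD8 libraries 8, 4 and 0. The CD4 libraries with Gh counts all came from mice with the Cre transgene, which floxed mice lacked. Loss of miR-155 and presence of the transgene cannot be told apart here, and the source of these reads was not tested. Vldlr, a lipoprotein receptor, was likewise at 0 in floxed cells and at least 13.2-fold higher in treated ones.

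Receptors and signalling genes of T cells were also among those that stayed higher. Dpp4, the surface peptidase CD26, was at 54.5, 52.7 and 51.5 CPM in floxed and 119.5, 117.2 and 98.0 CPM in treated cells (1.07 ± 0.14, adjusted p = 3.68e-05). Gpr183, a receptor for oxysterols that guides lymphocytes, was at 99.8, 80.0 and 69.9 CPM in floxed and 178.3, 157.2 and 159.4 CPM in treated cells (0.99 ± 0.14, adjusted p = 0.000122). Hif1a, the oxygen-regulated subunit of a hypoxia transcription factor, was at 1417.6, 1246.6 and 922.5 CPM in floxed and 2450.0, 2310.2 and 2273.3 CPM in treated cells (0.97 ± 0.14, adjusted p = 0.000141). In none of the 3 did the groups overlap, and all 3 calls held with scaling to pan T cell genes (0.50, 0.44 and 0.44). Prkcq, a kinase of T cell receptor signalling (0.75 ± 0.15), Tnfrsf9, the costimulatory receptor 4-1BB (0.87 ± 0.20), Ltb, the lymphotoxin beta chain (0.83 ± 0.14), and Il16, a cytokine gene (0.71 ± 0.12), were higher too. For these 4 the call was lost with scaling to pan T cell genes, where they stood at 0.21, 0.35, 0.30 and 0.16. Clcn3, a chloride transporter of endosomes (0.79), Prelid2 (1.39) and the transcription factor gene Tshz1 (1.04) also stayed higher. With scaling to pan T cell genes Prelid2 kept its call (0.85, adjusted p = 0.0103), while Clcn3 (0.20, adjusted p = 0.424) and Tshz1 (0.46, adjusted p = 0.079) did not.

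Many of the larger rises among kept genes rested on a few CPM in the floxed libraries. Fbln5 and Fstl1, which encode secreted matrix proteins, Chsy3, an enzyme of chondroitin synthesis, Unc5c, a netrin receptor, and Ano3, a membrane scramblase, were at 1.68 CPM or less in each floxed library and between 1.51 and 20.6 CPM in the treated ones. Their group means were higher in untreated deficient than in treated cells, least so for Fstl1, at 8.32 and 7.87 CPM. Leaving out floxed replicate 3 ended the call of each (adjusted p = 0.0688 for Chsy3, 0.0541 for Fbln5, 0.147 for Fstl1, 0.125 for Unc5c and 0.0879 for Ano3), and for Fstl1, Unc5c and Ano3 so did leaving out treated replicate 3 (0.0728, 0.156 and 0.0881). Other single libraries that ended a call were floxed replicate 2 (0.107 for Fstl1, 0.0637 for Ano3), floxed replicate 1 (0.0884 for Unc5c) and treated replicate 2 (0.0965 for Fstl1). Melanoma markers were also higher in deficient libraries. With their summed level as a covariate Chsy3 (3.30, adjusted p = 0.0172) and Fbln5 (2.78, adjusted p = 0.0107) were still called, and Fstl1 (3.04, adjusted p = 0.122), Unc5c (1.60, adjusted p = 0.172) and Ano3 (1.48, adjusted p = 0.0982) were not. Pde11a, a phosphodiesterase of cyclic nucleotides, was even across libraries, at 0.673, 0.961 and 0.747 CPM in floxed and 8.38, 8.43 and 10.8 CPM in treated cells (3.49 ± 0.53, adjusted p = 0.000186).

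Ctsb, Lair1 and Abcg1 were among the genes that stayed lower with the smallest adjusted p. Ctsb, the lysosomal protease cathepsin B, was at 2867.1, 2323.8 and 3968.6 CPM in floxed and 629.8, 727.1 and 865.1 CPM in treated cells (-2.04 ± 0.17, adjusted p = 6.73e-07). Lair1, an inhibitory collagen receptor of leukocytes, was at 183.1, 182.4 and 207.3 CPM in floxed and 34.7, 48.5 and 46.3 CPM in treated cells (-2.15 ± 0.18, adjusted p = 6.73e-07). Abcg1, a cholesterol exporter, was at 189.0, 246.2 and 298.6 CPM in floxed and 78.1, 85.5 and 70.7 CPM in treated cells (-1.65 ± 0.15, adjusted p = 1.74e-06). The groups were far apart in all 3 genes. Plin2, a coat protein of lipid droplets (-1.58 ± 0.14), Efhd2, a calcium-binding adaptor (-1.28 ± 0.13), Emp1 (-1.65 ± 0.17), Cln8 (-1.81 ± 0.18) and Cndp2, a dipeptidase (-2.04 ± 0.20), were lower as well. Ctsb, Lair1, Abcg1, Plin2 and Efhd2 are among the 15 genes still called lower with the macrophage level as a covariate, at -1.39, -1.81, -1.67, -1.17 and -1.09. That list also held, named here after its values were seen, Tsc22d3 and Sgk1, both induced by glucocorticoids, at -1.84 and -1.52, and Il7r, the interleukin 7 receptor, at -1.92, which was not called without the covariate (-0.58, adjusted p = 0.257). On the higher side the same fit called Stc2 (4.85), Asns, the asparagine synthetase (2.03), Ak4, an adenylate kinase (3.26), and Fat1 (5.40), among 6 genes, of which Ak4 and Fat1 were likewise named after the values were seen.

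Macrophage markers were mostly lower in treated cells, and so were 8 of the 15 dendritic cell genes. All 22 macrophage markers had values below 0, 18 were called, and 15 of these had a deletion call. The list median was -2.22, against 0.01 for all genes and 8.08% called lower. Examples are Ctss, the protease cathepsin S (3263.7 to 828.2 CPM in group means, -1.98 ± 0.21), Itgam, the integrin chain CD11b (-2.14 ± 0.29), and Ms4a7, a membrane protein of macrophages (-2.73 ± 0.46). With each library left out in turn, 14 to 20 members were called lower. Of 15 dendritic cell and antigen presentation genes 8 were called lower and 0 higher, with a median of -1.69. Scaling to pan T cell genes gave medians of -2.86 and -2.22 for the lists.

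The class II antigen presentation genes moved together within that list. H2-Aa was at 2773.0, 2000.5 and 4899.5 CPM in floxed and 560.0, 913.2 and 786.5 CPM in treated cells (-2.10 ± 0.36, adjusted p = 0.00203). H2-Eb1 (-2.14 ± 0.34), H2-Ab1 (-1.93 ± 0.33) and Ciita, the coactivator of these genes (-1.43 ± 0.27), were lower too. No libraries of the groups overlapped for any of the 4. With the macrophage level as a covariate the values were -0.60 for H2-Aa and -0.66 for H2-Eb1, neither called. The promoters of H2-Aa and H2-Eb1 are printed because Ciita is known to act through factors bound to the paired X and Y boxes there. Each runs from 250 bases before to 50 after the start of the gene (RefSeq, GRCm38.p6), on the strand of the gene. Capitals mark the X box core GCAAC and the Y box core ATTGG.
H2-Aa: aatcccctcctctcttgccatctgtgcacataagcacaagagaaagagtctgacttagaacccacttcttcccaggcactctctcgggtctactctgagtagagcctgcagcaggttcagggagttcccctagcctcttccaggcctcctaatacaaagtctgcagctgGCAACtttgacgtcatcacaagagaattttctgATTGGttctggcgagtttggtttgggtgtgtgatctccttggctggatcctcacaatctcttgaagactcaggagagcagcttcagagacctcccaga
H2-Eb1: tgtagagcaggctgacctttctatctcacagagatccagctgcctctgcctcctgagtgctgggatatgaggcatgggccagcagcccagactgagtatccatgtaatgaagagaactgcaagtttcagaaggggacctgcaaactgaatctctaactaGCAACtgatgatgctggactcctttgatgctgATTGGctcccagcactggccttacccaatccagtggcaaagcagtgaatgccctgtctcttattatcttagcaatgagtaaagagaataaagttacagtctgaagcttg
They lie at chr17:34287774-34288073 (minus strand) and chr17:34305617-34305916 (plus strand). The starts of the cores are 33 bases apart in H2-Aa and 32 in H2-Eb1. A search for both cores in this order on either strand, 30 to 36 bases apart, found them in 112 of 32851 promoters (0.341%). Among class II genes, with Cd74 and Ciita looked up too, 5 of the 8 with a promoter entry had both. The spacing was chosen after these promoters were seen, and a match is a description of letters, not of binding.

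Fos, Atf3, Ccl3 and Ccl4 stayed lower in treated cells. Fos, a subunit of the AP-1 transcription factor, was at 1136.0, 1127.0 and 1888.5 CPM in floxed and 491.5, 601.2 and 468.5 CPM in treated cells (-1.41 ± 0.17, adjusted p = 2.16e-05). Atf3, a stress-induced transcription factor, changed by -2.13 ± 0.24, Jun by -0.70 ± 0.14 and Ier3 by -1.43 ± 0.18. Of 21 genes that tissue dissociation is known to induce, 6 were called lower and 0 higher, all 6 with a deletion call, against 8.08% of all genes called lower, and the list median was 0.03. Ccl3 and Ccl4, chemokines of activated T cells and macrophages, went from means of 306.7 and 230.3 CPM to 87.9 and 85.0 CPM (-1.80 ± 0.24 and -1.44 ± 0.18). Nkg7, a granule protein of cytotoxic cells, was at 209.3, 215.5 and 226.0 CPM in floxed and 163.6, 127.4 and 145.6 CPM in treated cells (-0.57 ± 0.11, adjusted p = 0.00196). Among 22 inhibitory receptor and exhaustion genes 6 were lower and 1 higher (median -0.34). The lower ones included Lair1, Cd244a (-1.31 ± 0.23), Cd38, an ectoenzyme (-0.80 ± 0.19), and Vsir, the checkpoint protein VISTA (-0.57 ± 0.13). The call of Cd38 was lost without treated replicate 1 (adjusted p = 0.0578) and that of Vsir without floxed replicate 3 (0.0617). With the macrophage level as a covariate Fos, Atf3, Jun, Ier3, Ccl3, Ccl4, Nkg7, Cd244a, Cd38 and Vsir stood at -1.42 to -0.59. None of them was called (adjusted p from 0.102 to 0.386), and of the 22 inhibitory receptor and exhaustion genes only Lair1 was. That fit cannot tell the macrophage level apart from the groups.

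**Figure D3:**
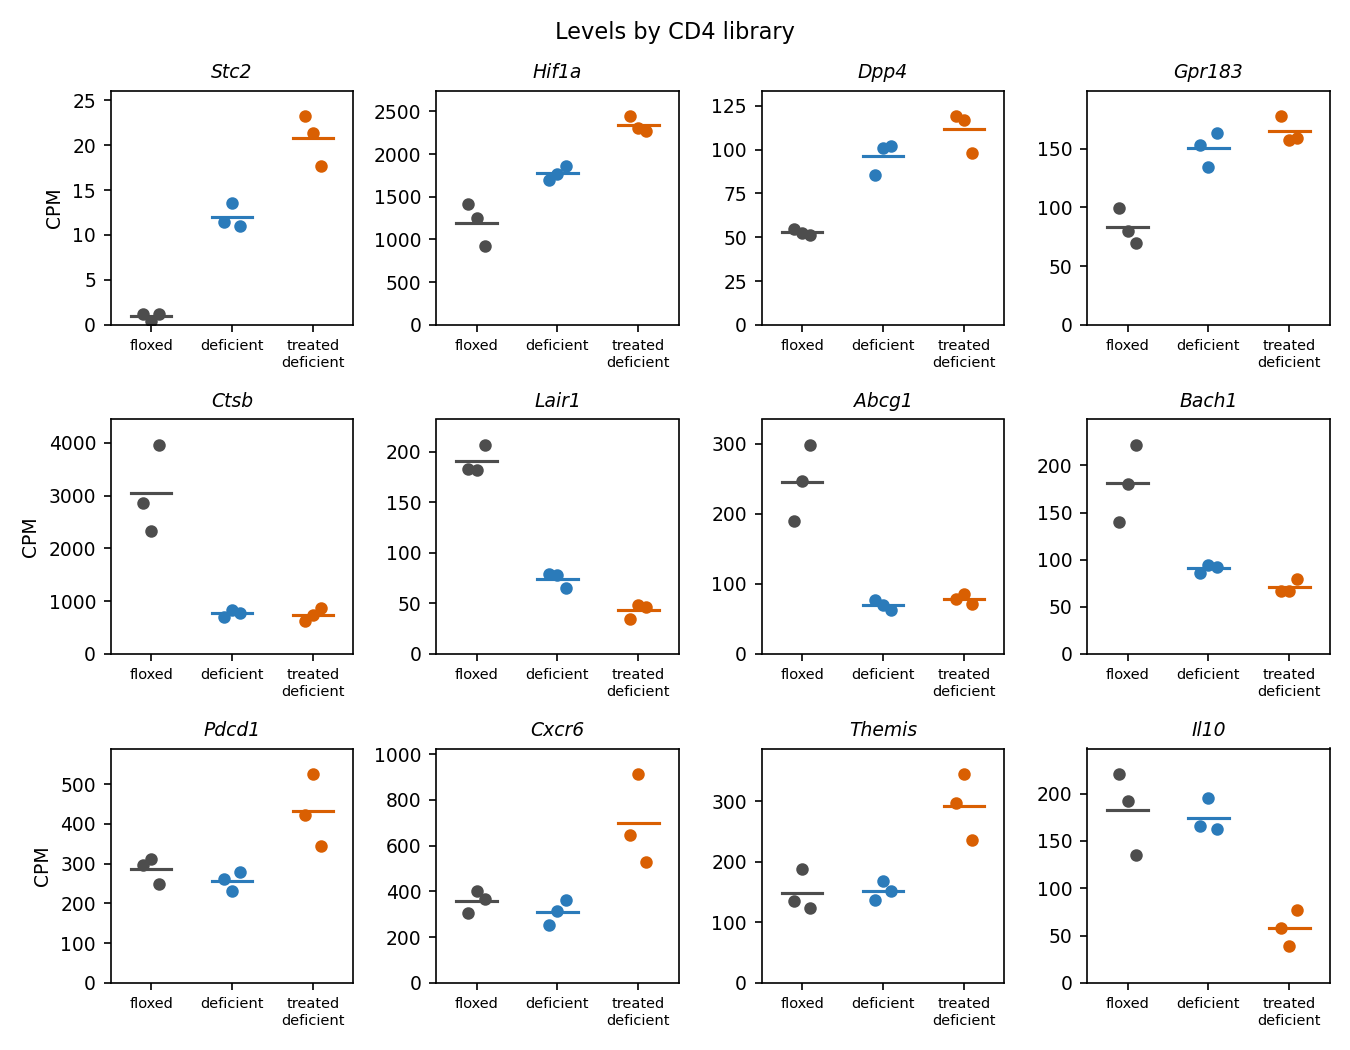
Levels of 12 genes in each CD4 library (points, CPM, axes from 0) with group means (bars). The upper row shows genes that stayed higher, the middle row genes that stayed lower, and the lower row 4 genes for which the treated libraries differ from both the floxed and the untreated deficient ones.

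Effector cytokines were among the deletion calls that were no longer called. Ifng, the interferon gamma gene, was at 96.6, 204.1 and 172.0 CPM in floxed, 37.7, 47.7 and 72.7 CPM in deficient and 149.3, 192.8 and 64.2 CPM in treated cells. The treated libraries overlapped both other groups. Its log2 fold change was -1.60 in the deletion (adjusted p = 0.0305), -0.23 ± 0.42 in the treated (0.799) and 1.37 in the blockade comparison (0.263). Cd8a, given above, was lowest in the deficient libraries. With the summed CD8 lineage level as a covariate the values for Ifng were -0.68 in the deletion (adjusted p = 0.479), 0.21 in the treated (0.776) and 0.89 in the blockade comparison (0.545), none called. Tnf, the tumor necrosis factor gene, showed -0.96, -0.25 and 0.71 in the same order, and Havcr2, the receptor TIM-3, -1.09, -0.42 and 0.66. Neither had a blockade call. Bcl6, a transcription factor of follicular helper cells, showed -1.06, -0.34 and 0.72. With the CD8 lineage covariate the deletion values were -0.7 for Tnf, -0.59 for Havcr2 and -0.62 for Bcl6. None of these was called (adjusted p = 0.233, 0.304 and 0.439).

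Genes of naive and circulating T cells and of type I interferon also fell back below the threshold. S1pr1, which guides lymphocytes out of tissue, was at 109.2, 127.8 and 72.9 CPM in floxed, 344.1, 233.4 and 243.2 CPM in deficient and 216.0, 97.0 and 175.5 CPM in treated cells. The treated libraries overlapped the floxed ones (0.66 ± 0.27, adjusted p = 0.136). Over all 14080 genes 649 were called higher and 994 lower after deletion, and 4.08% were called higher and 8.08% lower in treated cells. The treated counts of the naive and interferon lists below lay near those shares. Of 22 naive and memory genes 5 were called higher after deletion. In treated cells 1 was called higher, Ets1, and 2 lower, Klf2 and Il6ra, a receptor chain for interleukin 6, and the list median went from 1.00 to -0.01. The call of Il6ra was lost without floxed replicate 3 or treated replicate 1, 2 or 3 (adjusted p = 0.138, 0.0903, 0.0668 and 0.0573). Of 34 type I interferon response genes 13 were called lower after deletion, and 4 remained lower and 1 was higher in treated cells, with medians of -0.84 and -0.25. The 4 were Irf7 (-0.81 ± 0.19), Ifit2 (-0.85 ± 0.20), Oasl1 (-1.32 ± 0.31) and Oasl2 (-1.30 ± 0.34). Leaving out floxed replicate 3 ended the calls of Irf7, Ifit2 and Oasl2 (adjusted p = 0.078, 0.0617 and 0.124), and leaving out treated replicate 1 or 2 ended that of Oasl2 (0.0743 and 0.0722). Melanoma markers had 9 of 15 higher calls after deletion and 0 in treated cells, with medians of 3.24 and 1.66.

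For 7 of the genes no longer called in treated cells, the blockade comparison itself was called against the direction of the deletion. Both comparisons use the same untreated deficient libraries, so this opposition is in part built in and is no separate evidence of a reversal. Adam8, a metalloproteinase of activated leukocytes, was at 358.4, 330.1 and 269.7 CPM in floxed, 140.6, 134.9 and 119.6 CPM in deficient and 209.4, 266.9 and 230.9 CPM in treated cells. Each treated library lay between the other groups (blockade 0.84, adjusted p = 0.0413). Hdc, the histamine-forming enzyme, and Fcna, a ficolin of macrophages, had deletion values of -2.65 and -6.27 and blockade values of 3.11 and 5.54. Gem, a small GTPase induced by activation, stood at -0.76 in the deletion and 0.36 in the treated comparison. Tdrp and Slc30a4, a zinc transporter, went the other way, at 1.90 and 0.64 in the deletion and -1.85 and -1.0 in the blockade comparison. The remaining one was an unnamed model. Among the kept genes 2 had a blockade call, both macrophage genes named here after their values were seen. Folr2 and Cd5l stood at -4.45 and -10.22 in the deletion, -1.77 and -2.83 in the treated and 2.68 and 7.39 in the blockade comparison.

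Of the genes called in the treated but not in the deletion comparison, those with a blockade call too were led by receptor and signalling genes. Cxcr6, a chemokine receptor of tissue T cells, stood at 303.1, 399.6 and 367.5 CPM in floxed, 253.2, 312.0 and 361.7 CPM in deficient and 646.4, 914.4 and 529.2 CPM in treated cells. All treated libraries lay above the other 6 (0.96 ± 0.18, adjusted p = 0.0015, and 1.17 in the blockade comparison, adjusted p = 0.0104). Themis, a regulator of T cell receptor signalling, was at 134.5, 188.2 and 123.9 CPM in floxed and 296.6, 345.8 and 236.1 CPM in treated cells (0.97 ± 0.17, adjusted p = 0.00085; blockade 0.94). Pdcd1, which encodes PD-1, was at 296.3, 312.5 and 247.8 CPM in floxed, 261.5, 231.1 and 277.4 CPM in deficient and 422.0, 526.2 and 344.8 CPM in treated cells. Its treated libraries lay above all others (0.59 ± 0.14, adjusted p = 0.00933, and 0.75 in the blockade comparison, adjusted p = 0.0406). The treated call of Pdcd1 was lost without floxed replicate 3 (0.0648) or treated replicate 2 (0.0668). Kcnk5, a potassium channel, showed 1.26 ± 0.27. Scaled to pan T cell genes, Cxcr6, Themis and Pdcd1 stood at 0.36, 0.41 and 0.03, none called, and Kcnk5 at 0.72, called (adjusted p = 0.0499).

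Il10, which encodes an immunosuppressive cytokine of regulatory T cells and macrophages, moved down. It was at 221.3, 192.0 and 135.4 CPM in floxed, 166.3, 195.4 and 162.6 CPM in deficient and 57.6, 38.9 and 76.9 CPM in treated cells. Every treated library lay below all 6 others (-1.65 ± 0.28, adjusted p = 0.00112, and -1.58 in the blockade comparison, adjusted p = 0.0396). The call held with scaling to pan T cell genes (-2.16, adjusted p = 8.97e-05), and the value with the macrophage covariate was -1.62 (not called, adjusted p = 0.356). The small nucleolar RNA Snord17 (-0.58) and Ly6d (-2.87), the latter named after its values were seen, also had a blockade call. Snord17 was not called in the treated comparison without floxed replicate 1 or 3 or treated replicate 1 or 3 (adjusted p = 0.114, 0.0618, 0.0715 and 0.0513). Without a blockade call, Klf2, a transcription factor of quiescent T cells (-1.03 ± 0.23), Il6st, the shared receptor chain of the interleukin 6 family (-0.93 ± 0.18), Socs3, a feedback inhibitor of that pathway (-0.87 ± 0.21), Cxcl9, an interferon-induced chemokine (-2.46 ± 0.44), and Nupr1, a stress-induced chromatin protein (-2.32 ± 0.38), were lower. The call of Socs3 was lost without floxed replicate 3 (adjusted p = 0.0628) or treated replicate 2 (0.0507).

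Of 22 cytokine and chemokine genes 7 were called higher and 4 lower (median 0.45), against 4.08% and 8.08% of all genes. Tnfsf11, the ligand RANKL, was at 44.4, 54.8 and 47.0 CPM in floxed and 186.3, 391.3 and 82.5 CPM in treated cells (2.16 ± 0.43, adjusted p = 0.00527). Csf2, the gene of the growth factor GM-CSF, was at 8.08, 16.6 and 16.7 CPM in floxed and 65.2, 156.6 and 11 CPM in treated cells (2.47 ± 0.62, adjusted p = 0.0195). Treated replicate 3 was the lowest treated library for both, and for Csf2 it lay among the floxed ones. Without floxed replicate 1 or 3 or treated replicate 2 Csf2 was not called (adjusted p = 0.0732, 0.0781 and 0.0676). Lta, the lymphotoxin alpha chain, showed 1.45 ± 0.34, and was not called without floxed replicate 3 (adjusted p = 0.0503). Il18r1, a receptor chain for interleukin 18, was at 145.6, 176.8 and 140.8 CPM in floxed and 315.9, 316.9 and 262.7 CPM in treated cells (0.95 ± 0.14, adjusted p = 0.000119). Rora, a nuclear receptor of tissue T cells, stood at 160.4, 146.9 and 118.7 CPM in floxed and 315.9, 377.4 and 265.4 CPM in treated cells (1.17 ± 0.17, adjusted p = 0.00016). Of these, Tnfsf11, Csf2, Lta and Rora stayed called with scaling to pan T cell genes, at 1.56, 1.83, 0.91 and 0.61.

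Cell cycle and glycolysis genes were higher relative to the whole of each library but not relative to T cell genes. Of 30 G2 and mitosis genes 14 were called higher and 0 lower (median 0.62, against 4.08% of all genes called higher), 2 of them with a deletion call. Scaled to pan T cell genes 0 were called either way, with a median of 0.11. Top2a, a topoisomerase of dividing cells, was at 446.9, 704.5 and 368.0 CPM in floxed and 834.3, 906.3 and 1009.2 CPM in treated cells (0.85 ± 0.18, adjusted p = 0.00304). Mki67, the proliferation marker Ki-67, was at 303.7, 575.9 and 288.9 CPM in floxed and 627.8, 738.5 and 657.7 CPM in treated cells (0.79 ± 0.20, adjusted p = 0.0123), and its call was lost without floxed replicate 1 or 3 or treated replicate 2 (0.0645, 0.0944 and 0.0545). For both genes the groups did not overlap. Of 30 G1 to S genes 7 were higher and 0 lower (0 and 2 scaled to pan T cell genes), and of 20 glycolysis genes 9 were higher and 0 lower (0 and 3). Slc2a3, a glucose transporter (0.82 ± 0.18), and Aldoa and Aldoc, aldolases (0.51 and 1.10), are examples, and Aldoa turned to -0.06 with scaling to pan T cell genes. Leaving out single libraries gave 5 to 23 higher G2 and mitosis genes, 1 to 16 higher G1 to S genes and 3 to 10 higher glycolysis genes.

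**Figure D4:**
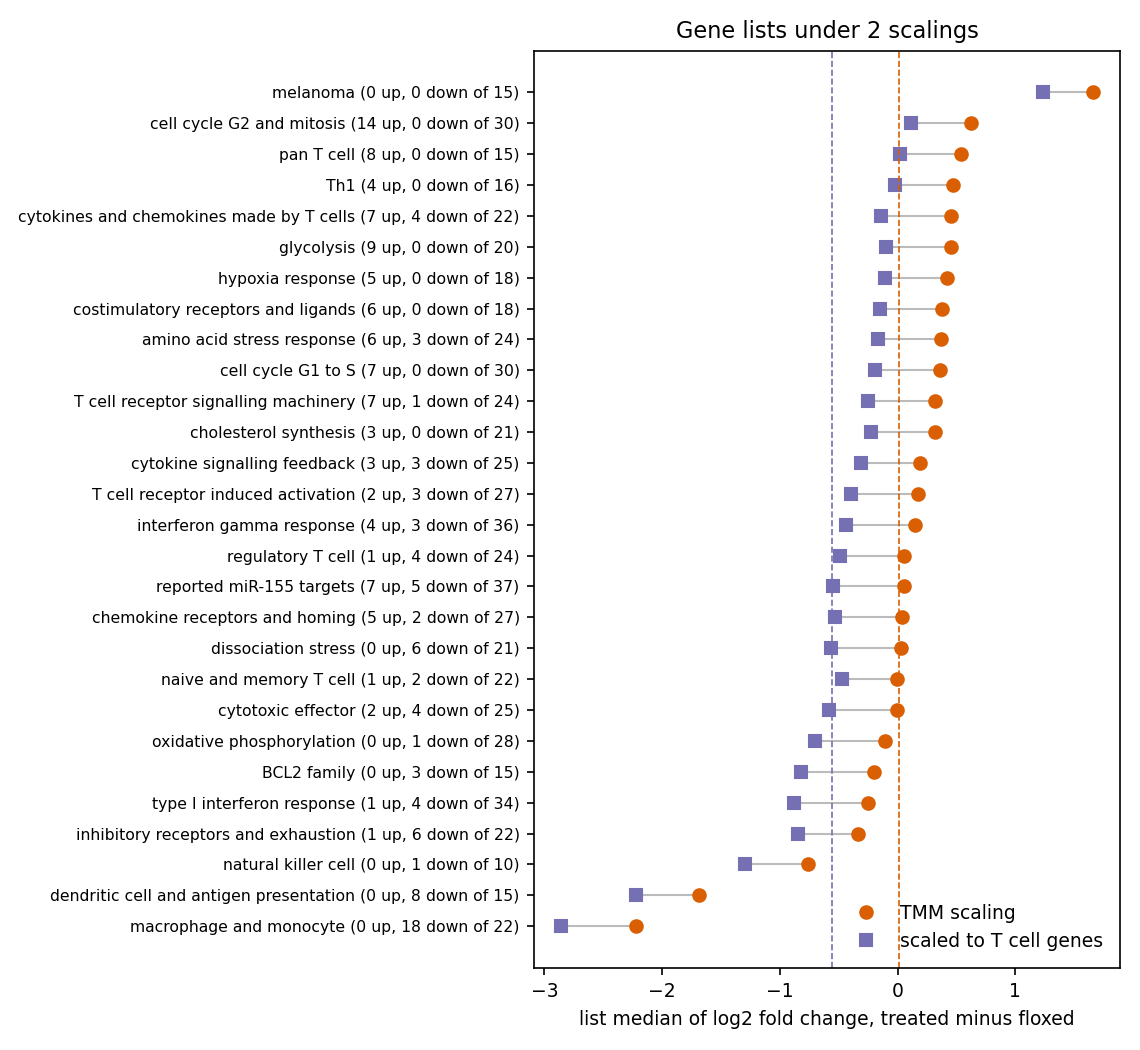
Median log2 fold change (treated deficient minus floxed CD4) of each list with at least 10 tested members, with TMM scaling (circles) and with scaling to pan T cell genes (squares), where dashed lines mark the medians of all genes, 0.01 and -0.56. The macrophage and dendritic cell lists lie far to the left under both scalings, while most T cell lists lie right of 0 under the first and left of 0 under the second.

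The transcription factors Foxp3, Tbx21 and Gata3, which define helper subsets, were not called. Foxp3, the transcription factor of regulatory T cells, stood at 62.6, 52.8 and 32.3 CPM in floxed and 63.7, 73.2 and 62.2 CPM in treated cells, with overlap (0.42 ± 0.41, adjusted p = 0.585). Ctla4 stood at 1450.4, 1089.0 and 799.0 CPM in floxed and 1205.8, 873.5 and 1315.4 CPM in treated cells (0.02 ± 0.17, adjusted p = 0.957; -0.49 and called with scaling to pan T cell genes). Il2ra, Ikzf2 and Icos, further genes of regulatory and activated cells, had values of 0.75, 0.70 and 0.20. The main fit called none of them, while DESeq2 and limma voom called Ikzf2 (adjusted p = 0.0285 and 0.0304). Of 24 regulatory T cell genes 1 was called higher, Il1rl1, a receptor for interleukin 33 (1.02 ± 0.25), and 4 lower, among them Il10 and Entpd1, the ectonucleotidase CD39 (-0.60 ± 0.17). Over all genes 4.08% were called higher and 8.08% lower. The call of Il1rl1 was lost without floxed replicate 1 (adjusted p = 0.0674), and that of Entpd1 without floxed replicate 2 or 3 (both 0.0519) or treated replicate 1 or 3 (0.0888 and 0.0543). Tbx21 and Gata3, the master regulators of Th1 and Th2 cells, stood at 0.26 and 0.49. Of the 16 Th1 genes 4 were called higher and 0 lower (median 0.47, against 4.08% of all genes called higher), Il18r1, Cxcr6, Bhlhe40 (0.91) and Stat4 (0.62). Leaving out single CD4 libraries gave 2 to 5 higher, and scaling to pan T cell genes 0 higher and 2 lower. The calls of Bhlhe40 and Stat4 were lost without floxed replicate 3 (adjusted p = 0.135 and 0.0597) or treated replicate 1 (0.0912 and 0.0672), and that of Bhlhe40 also without floxed replicate 1 or treated replicate 2 (0.0723 and 0.117). Gzmb, a granule protease, Prf1, the pore-forming protein, and Lag3, an inhibitory receptor, stood at -0.01, -0.63 and -0.81 and were not called either. DESeq2 did call Lag3 (adjusted p = 0.0348), and limma voom did not (0.0502).

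Reported targets of miR-155 moved both ways. Of 37 tested 7 were called higher and 5 lower, with a median of 0.05 against 0.01 for all genes, of which 4.08% were called higher and 8.08% lower. Those higher were Hif1a, Ets1 (0.68 ± 0.19), Smad5 (0.73), Sla, an adaptor that dampens T cell receptor signals (0.65 ± 0.12), Socs1, a brake on cytokine signalling, Tab2 (0.52 ± 0.12) and Ifngr1, an interferon gamma receptor chain (0.48 ± 0.13). Those lower were Spi1, a transcription factor of myeloid cells (-2.22), Zeb2 (-1.65 ± 0.24), Cebpb (-1.45 ± 0.19), Bach1 (-1.35 ± 0.15) and Sdcbp (-0.93 ± 0.12). Smad5 and Spi1 are named after their values were seen. The call of Ets1 was lost without floxed replicate 3 or treated replicate 1 (adjusted p = 0.105 and 0.0862), and that of Ifngr1, whose groups overlapped, without floxed replicate 3 or treated replicate 1 or 3 (0.125, 0.0954 and 0.0868). Spi1 stands on the macrophage list as well, and with the macrophage level as a covariate 0 of the 37 were called higher and 1 lower. Scaled to pan T cell genes 1 was called higher, Hif1a, and 19 lower, and Socs1, Tab2 and Ifngr1 turned to -0.01, -0.07 and -0.06. Socs1 was at 52.2, 42.5 and 42.1 CPM in floxed and 66.0, 74.1 and 60.3 CPM in treated cells, without overlap (0.54 ± 0.15, adjusted p = 0.0194). Its call was lost without floxed replicate 2 or 3 or treated replicate 1 or 2 (adjusted p from 0.0524 to 0.0888). Inpp5d, the phosphatase SHIP1, stood at 0.05 ± 0.15 and was not called.

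The printed 7-base site occurred among targets called in either direction, and its shares were not compared by a test. It was found in the 3' UTR of 26 of the 37, in 7 of 7 called higher and in 4 of 5 called lower. Over all genes with an annotated 3' UTR, 1141 held a site. Of these 5.35% were called higher and 8.33% lower (median 0.07), against 4.43% and 9.12% of the 10959 without one (median 0.01). Genes with a site had longer 3' UTRs, with a median of 2723 bases against 1056, and the part of length in these shares was not tested. One transcript was searched per gene.

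The same contrast in CD8+ cells used other libraries, 3 floxed and 3 treated deficient, though the labels do not say whether they came from the same animals. There 706 genes (5.01%) were called, and 111 were called in the same direction in both cell types, 64 higher and 47 lower, which is 6.48% of the CD4 and 15.7% of the CD8 calls. Another 35 were called in opposite directions. The test of the difference between the cell types called 736 genes (5.23%). That count was 395 without floxed CD4 replicate 3, 392 and 479 without treated CD4 replicate 1 and 2, and 1191 without floxed CD4 replicate 2. Treated CD8 replicate 2 held 3.2 M counts, 26.8% of them from ribosomal RNA models, against 2.71 to 5.06% in the other CD8 libraries. Without it, an alternative chosen after seeing the data, 111 genes were called in CD8+ cells, 29 of them in the direction of the CD4 call, and 369 differed between the cell types. Leaving out the other floxed and treated CD8 libraries in turn gave, for these 3 counts, 261, 67 and 545 (floxed replicate 1), 1503, 195 and 1124 (floxed replicate 2), 547, 65 and 924 (floxed replicate 3), 141, 36 and 486 (treated replicate 1) and 247, 61 and 352 (treated replicate 3). Of the 111 genes, 64 also had a deletion call in CD4+ cells, among them Mir155hg, Stc2, Hif1a, Dpp4, Ltb, Il16, Jak2 and Ifngr1. Stc2 stood at 2.97 in CD8+ cells, Hif1a at 0.62 and Dpp4 at 0.65. With each of these 6 CD8 libraries left out in turn the CD8 calls of Mir155hg, Stc2 and Ifngr1 held. Without treated CD8 replicate 2 those of Hif1a, Dpp4, Ltb, Il16 and Jak2 were lost (adjusted p = 0.11, 0.0605, 0.0822, 0.0819 and 0.0647), and without treated CD8 replicate 1 as well (0.0709, 0.0625, 0.0721, 0.0904 and 0.06). Floxed CD8 replicate 3 ended those of Hif1a and Il16 too (0.0537 and 0.076), treated CD8 replicate 3 those of Ltb and Il16 (0.0531 and 0.0595), and floxed CD8 replicate 1 that of Ltb (0.0567), by adjusted p. The macrophage list had a median of -0.66 in CD8+ cells and -2.22 in CD4+ cells, and the difference was called for 9 of its 22 genes.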

How the data were processed

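RNA of flow-sorted cells was sequenced, and the authors deposited raw counts of reads per gene. Per the file headers these counts came from featureCounts 1.5.1 with the strand option at 2 and Ensembl release 87, and per the submitters' processing notes STAR, DESeq2 and build GRCm38 were used. The values were used as deposited. A single edgeR (4.0.16) model, run under R 4.3.3, took in all 18 libraries after TMM scaling and filterByExpr, with robust quasi-likelihood tests (12 residual degrees of freedom, biological coefficient of variation 0.229), with Benjamini-Hochberg adjustment. The floxed CD4 libraries held 4.47 to 7.39 M counts and the treated ones 3.36 to 11.4 M. Fits were tested on simulated data. Alternatives were other scalings, filters, DESeq2 1.42.0, limma 3.58.1 voom, fewer libraries, a replicate block, marker levels as covariates and single libraries left out. Members and the 40 gene lists were chosen with earlier results of these data known. Named are chosen marker genes, up to 12 called genes per direction with the largest change (mean of at least 5 CPM, groups apart), up to 8 per direction and class (kept, no longer called, gained) and up to 4 called members per list and direction. Symbols came from GENCODE M21 (49326 of 49671 IDs). Ribosomal genes with copies, unnamed models and receptor segments were counted, not named. Some genes the rule names are not reported here.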

Additional observations from a re-analysis of the deposited data

Results flagged for a closer look

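For 3 of the chosen marker genes the treated minus floxed contrast differed between CD4+ and CD8+ cells by edgeR's test of that difference. Maf, a transcription factor of helper T cells, changed by -0.44 in CD4+ and 1.23 in CD8+ cells, a difference of -1.67 ± 0.25 (adjusted p = 0.000549). Mki67 changed by 0.79 in CD4+ and -0.67 in CD8+ cells, a difference of 1.46 (adjusted p = 0.00486). Irf7, a transcription factor of the interferon response, changed by -0.81 in CD4+ and 0.96 in CD8+ cells, a difference of -1.77 (adjusted p = 0.000989). With each floxed or treated CD8 library left out in turn, the adjusted p of the difference was 0.000589 to 0.00224 for Maf, 0.00686 to 0.0189 for Mki67 and 0.00237 to 0.00507 for Irf7. In those fits the CD8 value of Mki67 was itself called only without floxed CD8 replicate 2 (adjusted p = 0.0488). In CD4+ cells Maf was not called by the main fit, but DESeq2 (adjusted p = 0.0324) and limma voom (0.0206) called it lower. The calls of Mki67 and Irf7 were lost without single CD4 libraries, as given above. The differences with CD4 libraries left out are not given here. Macrophage transcripts differed more in the CD4 than in the CD8 contrast, and their part in these differences was not tested.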

How the results depend on the processing

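Main counts were 575 higher, 1137 lower, 939 kept, 704 no longer called, 773 gained and 736 different from CD8. Higher genes were 270 with the 6 libraries alone, 300 with the melanoma covariate, 922 without a filter, 948 with upper quartile scaling (991 lower), 149 with pan T cell scaling and 6 with the macrophage covariate. Lower genes were 627 (melanoma), 5144 (pan T cell) and 15 (macrophage). Kept genes were 373 with the CD8 lineage covariate, 17 (macrophage) and 45 (melanoma). Genes no longer called were 63 (CD8 lineage), 80 (macrophage), 2 (melanoma) and 340 (pan T cell), and gained ones 4 (macrophage) and 3903 (pan T cell). Differences from CD8 were 1295 with DESeq2, 203 (macrophage) and 1469 without a filter. Leaving out single libraries gave 193 to 821 higher, 589 to 1178 lower, 425 to 1067 kept, 239 to 928 no longer called, 269 to 1036 gained and, CD8 libraries included, 352 to 1191 different from CD8; floxed replicate 3 gave the lowest for the first 3. The cause was not tested. The blockade count of 20 was 177 by DESeq2 and 24 by voom.

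The replicate block, with the numbers, gave 599 higher, 1111 lower, 952 kept, 637 no longer called, 755 gained and 841 different. Same-numbered floxed and treated libraries deviated together by correlations of 0.033, 0.017 and -0.013, so the numbers were not taken to pair them.

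Of 160 calls among all genes the rule names, 102 held with pan T cell scaling and 8 with the macrophage covariate. Of 188 genes that the rule names and that are reported on here, 23 turned sign under pan T cell scaling, chosen after seeing the data, 9 of them called in neither fit (such as Foxp3, -0.09, Icos, -0.31, Tbx21, -0.25, and Gata3, -0.07). The other 14, called in at least 1 of both fits, were Ctla4 (-0.49), Ccl5 (-0.58), Inpp5d (-0.54), Socs1 (-0.01), Ifngr1 (-0.06), Ctsw (-0.08), Ifit1bl1 (-0.03), Rrm2 (-0.01), Slbp (-0.13), Aldoa (-0.06), Egln1 (-0.07), Tab2 (-0.07), Jak2 (-0.06) and Il2rb (-0.01). With the macrophage covariate 21 turned, 15 of them called in neither fit. The other 6 were Stxbp6 (0.06), Capg (0.01), Ets1 (-0.18), Il6ra (0.01), Il2rb (-0.13) and Bax (0.11). The stricter filter (1 CPM in 3 libraries) tested 14818 genes, more than the main one. Folds of genes near 3 counts are limited by depth.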

Other observations

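Rpl29 and Tma7, genes that stayed lower, lie in the same stretch of chromosome 9. Between 104 and 112 Mb, a stretch chosen after the values were seen, 127 genes were tested, 7 were called higher and 12 lower, 15% in all against 12.2% of all genes. Of these 6 were also called after deletion and in CD8+ cells in the same direction. Those named here were picked after their values were seen. Rpl29, a ribosomal protein gene whose reads could be split with its processed copies, was at 13.6, 9.47 and 17.7 CPM in floxed and 1.05, 1.51 and 2.39 CPM in treated CD4+ cells (-3.01 ± 0.44, adjusted p = 0.00013). Tma7, in the same stretch, was at 25.6, 18.8 and 23.9 CPM in floxed and 2.27, 1.81 and 4.30 CPM in treated cells (-2.95 ± 0.35, adjusted p = 2.16e-05). For both the groups did not overlap, and the CD8+ values were -3.45 and -2.34. Ccdc12 stood at -1.26 and Apeh, a peptidase, at 0.62. Over whole chromosomes 10.2% of the tested genes of chromosome 9 were called, the lowest share among the 20 chromosomes with enough genes, where the highest was 15%.

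Other genes shared with the CD8+ contrast and the deletion calls, picked after their values were seen, included Itgb3, an integrin chain (1.48 ± 0.28), Slfn3 (1.19 ± 0.22), Pde3b, a phosphodiesterase (0.90 ± 0.18), and the glycolysis genes Tpi1 and Ldha (0.54 and 0.47) on the higher side. On the lower side were Nlrp3, the inflammasome sensor (-1.65 ± 0.41), Neat1, a nuclear noncoding RNA (-1.25 ± 0.24), and Zfp36, which destabilises cytokine messengers (-0.90 ± 0.24). Without treated CD8 replicate 2 the CD8 call of each of these but Pde3b was lost (adjusted p from 0.0604 to 0.118). Other CD8 libraries ended calls too. Floxed replicate 1 did so for Slfn3, Ldha, Nlrp3, Neat1 and Zfp36 (0.0518 to 0.108). Treated replicate 1 did so for Itgb3, Slfn3, Ldha, Nlrp3 and Zfp36 (0.0584 to 0.144). Floxed replicate 3 did so for Nlrp3 and Neat1 (0.182 and 0.0544), and treated replicate 3 for Nlrp3, Neat1 and Zfp36 (0.125, 0.0799 and 0.134).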
